A study of Mus musculus with 9 samples.

Results

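The genes described here are the HMG-box factors *Tcf7* (encoding TCF1) and *Lef1*, their partner *Ctnnb1* (β-catenin), the E protein genes *Tcf3* and *Tcf12* (HEB), and *Id2* and *Id3*, whose products block E proteins. They were chosen by gene symbol, 7 of the 21883 genes in the table, and all 7 were found. RNA was sequenced from iNKT cells sorted from the thymus of C57BL/6 mice, in 9 libraries that fall into 3 groups of 3. WT stage 2 cells are CD24 low, CD44 high and NK1.1 low, WT stage 3 cells are the mature CD24 low, CD44 high and NK1.1 high cells, and *Med23*-deficient stage 2 cells have the stage 2 phenotype and lack a Mediator subunit. The series text gives the age of the WT mice as 6 weeks, and the labels do not give that of the *Med23*-deficient mice. In the *Med23*-deficient mice, a Cre driven by the *Cd4* promoter removes floxed *Med23* by the double-positive thymocyte stage, so that other T cells of these mice lack it as well. The study's methods speak of independent experiments, but the labels do not say whether replicates came from separate animals, so p-values measure only the spread between these libraries. The values are FPKM, in which fragments are scaled by transcript length and by how many were mapped. Sequencing depth is unknown, and between 15584 and 17333 genes lay above 0 in a library. A single gene model, *Gm23935*, held 62.2% to 71.9% of the summed FPKM of each library, and so weighs on any scaling to that sum, such as TPM.

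TCF1 and LEF1 bind DNA through an HMG box, recruit β-catenin as an activator or Groucho/TLE proteins as corepressors, and are required for early T cell development. E proteins are helix-loop-helix factors that bind E-box sequences as dimers, and Id proteins, which have the helix-loop-helix but no DNA-binding region, pair with them and keep them off DNA. In iNKT cells this circuit is known for its part in the choice between subsets: E proteins promote PLZF, encoded by *Zbtb16*, while *Id2* and *Id3* have been linked to NKT1 development.

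*Med23* itself was measured first. Its FPKM was 5.51, 5.15 and 6.74 in the WT stage 2 libraries, 7.14, 4.44 and 6.12 in WT stage 3, and 4.80, 3.6 and 3.92 in the *Med23*-deficient libraries. All 3 *Med23*-deficient libraries lay below all 3 WT stage 2 libraries, with a log2 fold change of -0.41 (95% interval -0.86 to 0.04, limma adjusted p = 0.552). A gene-level FPKM pools deleted and retained exons, so this value does not measure the deleted part. Of the markers of the sorted cells, *Trac* and *Cd3e* were abundant in every library (*Trac* 281 ± 13.9 FPKM in WT stage 2, 337 ± 47.4 in WT stage 3 and 362 ± 31.2 in the *Med23*-deficient libraries; SD, n = 3 each). *Klrb1c*, which encodes NK1.1, was 16.7 ± 9.30 FPKM in WT stage 2, 75 ± 19.0 in WT stage 3 and 3.42 ± 1.05 in *Med23*-deficient stage 2 (SD, n = 3). *Cd24a* did not exceed 0.72 FPKM in any library.

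The first comparison, WT stage 3 against WT stage 2, asks how the 7 genes differ across the last step of iNKT cell maturation. *Tcf7*, *Lef1* and *Id3* fell, *Id2* was higher by 1.62 times without passing the adjusted p, and *Ctnnb1* was at the same level in both stages. Calls were made with limma on log2(FPKM + 1) over all 20689 genes tested, so fold changes are on that scale, which understates those of genes at low FPKM. After Benjamini-Hochberg adjustment over all of them, 3 of the 7 genes had a p no higher than 0.05, all lower in stage 3, where 0.914% of all genes tested were called lower and 0.759% higher. Of the genes whose mean FPKM reached 5, as it did for these 7, 1.56% were called lower. The same 3 genes also passed the thresholds in the study's methods (2-fold or more, with an unadjusted p no higher than 0.05), which 1.90% of genes passed as lower and 1.70% as higher. The 3 libraries of one stage lay wholly above or below those of the other for 6 of the 7 genes, against 17.8% of all genes tested.

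*Tcf7* (ENSMUSG00000000782, mm10 chromosome 11, 52252371 to 52283014, minus strand) measured 244, 173 and 195 FPKM in the WT stage 2 libraries, against 35.1, 52.6 and 40.3 FPKM in WT stage 3. Every stage 3 library was far below every stage 2 library, and the means differed by 4.78 times. The log2 fold change was -2.23 (standard error 0.19, 95% interval -2.70 to -1.77, limma adjusted p = 0.0118). In WT stage 2 *Tcf7* ranked 74 by mean FPKM among 13109 protein-coding genes, and in WT stage 3 it ranked 557. The adjusted p was 0.0598 without WT stage 2 replicate 3, 0.0660 without WT stage 3 replicate 3 and 0.163 in a linear model per gene in the style of Ballgown, the highest of 16 alternatives (lowest 0.00144). In a fit that takes replicate numbers for a block, the adjusted p was 0.0935.

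*Lef1* (ENSMUSG00000027985, chromosome 3, 131110471 to 131224356, plus strand), the other HMG-box factor of the pair, reached 35, 32 and 40.8 FPKM in the WT stage 2 libraries, against 14.9, 11.7 and 18.3 FPKM in WT stage 3. The groups did not overlap, and the stage 2 mean was 2.40 times the stage 3 mean. On the log2 scale the difference was -1.22 (standard error 0.18), with a limma adjusted p of 0.0408. This call was close to the threshold: it ended with any 1 of the 6 libraries left out (adjusted p from 0.0771 to 0.119), with a common upper quartile (0.0627), with quantile normalization (0.0532) and in the Ballgown-style model (0.416), the lowest being 0.00792 with all 9 libraries, while the log2 fold change stayed between -1.37 and -1.07. The call also ended in a fit that takes replicate numbers for a block (0.0776). A short gene model of uncertain type on the same strand inside *Lef1*, *Gm42449*, had 6.34, 6.65 and 12.9 FPKM in WT stage 2 beside 1.85, 2.69 and 4.54 in WT stage 3, and the reads of both models cannot be told apart here. The same holds for *Gm26551*, which overlaps *Tcf7* on its strand at up to 9.64 FPKM, and for 7 short models of uncertain type on the *Tcf12* strand inside that gene, with means of 1.44 to 4.56 FPKM over the 9 libraries.

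The DNA before the start sites of *Lef1* and *Id2* is shown from RefSeq with GRCm38.p6 (mm10), as far as it lies outside the exons annotated for these genes. *Lef1* was called lower in WT stage 3, and *Id2* was higher there without passing the adjusted p. The *Lef1* bases (chr3:131110047-131110296, plus strand) end just before the first RefSeq start, outside the annotated *Lef1* transcripts, and lie within the span of the antisense model *Gm43352*. The *Id2* bases (chr12:25096254-25096342, minus strand) lie upstream of the RefSeq gene and in the first intron of a longer GENCODE vM21 transcript. All 7 genes had a RefSeq window. Those of *Tcf7*, *Tcf3* and *Id3* had 0 bases outside the exons annotated for these genes and are not shown. Those of *Tcf12* (176 such bases) and *Ctnnb1* (250 such bases) are not shown either. Capitals mark CAGCTG, an E-box sequence.
Lef1: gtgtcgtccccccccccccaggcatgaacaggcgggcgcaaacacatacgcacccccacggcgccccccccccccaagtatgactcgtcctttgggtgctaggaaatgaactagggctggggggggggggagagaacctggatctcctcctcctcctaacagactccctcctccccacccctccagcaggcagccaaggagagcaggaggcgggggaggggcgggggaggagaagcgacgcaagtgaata
Id2: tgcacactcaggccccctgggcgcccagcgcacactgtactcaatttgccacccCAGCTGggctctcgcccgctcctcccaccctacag
Both strands of the 250 bases before 1 RefSeq start site of each of the 7 genes were searched for 3 motifs. The RefSeq genes *Tcf7*, *Tcf3* and *Tcf12* reach farther upstream than the start site used, so the windows of *Tcf7* and *Tcf3* lie inside the gene and that of *Tcf12* does in part. CAGCTG was present for *Tcf7* (inside the gene), *Tcf12* and *Id2*, and in 13% of all 32851 RefSeq windows of that length. The E-box CAGGTG (17.2% of all windows) and the TCF/LEF sequence CTTTGA (13.8%) were found for none of the 7. A match is a description of these letters, and binding was not measured.

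The Id genes differed in direction, but only *Id3* was called, and they were not tested against each other. *Id3* (ENSMUSG00000007872, chromosome 4, 136143497 to 136145755, plus strand), the Id gene that T cell receptor signals induce through Egr factors, had 18.9, 14.2 and 23.2 FPKM in WT stage 2. In WT stage 3 it was at 1.75, 2.05 and 0.54 FPKM. The groups were far apart, with means that differed by 13 times, and its rank among protein-coding genes went from 1659 to 8408. This was a log2 fold change of -3.05 (standard error 0.32), with a limma adjusted p of 0.0188. The adjusted p lay between 0.0546 and 0.0774 with any of 5 of the 6 libraries left out, the exception being WT stage 2 replicate 2, and was 0.296 in the Ballgown-style model, the highest of 16 alternatives (lowest 0.00257). With replicate numbers taken for a block, the adjusted p was 0.116.

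*Id2* (ENSMUSG00000020644, chromosome 12, 25093801 to 25096092, minus strand), the more abundant Id gene, measured 259, 287 and 254 FPKM in the WT stage 2 libraries, against 482, 413 and 404 FPKM in WT stage 3. All stage 3 libraries were higher. Its log2 fold change of 0.70 (standard error 0.11, 95% interval 0.42 to 0.98) had a limma adjusted p of 0.0515, just outside the threshold, and was below a 2-fold change. Of 16 alternatives, 5 put it inside the threshold. They were all 9 libraries (0.0208), a common upper quartile (0.0214), quantile normalization (0.0226), a mean FPKM of 1 or more (0.0295) and no trend (0.0479). On the TPM scale the adjusted p was 0.173, so the call turned with the scaling. The highest was 0.338, in the Ballgown-style model. *Id2* was the 54th most abundant protein-coding gene in WT stage 2 and the 25th in WT stage 3. *Id1* stayed at or below 0.28 FPKM in every library.

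The E protein genes had smaller fold changes than the Id genes, a difference that was not tested. *Tcf3* (ENSMUSG00000020167, chromosome 10, 80409514 to 80433647, minus strand) had 21.0, 17.0 and 19.9 FPKM in WT stage 2, against 15.1, 16.5 and 15.4 in WT stage 3. *Tcf12* (ENSMUSG00000032228, chromosome 9, 71842688 to 72111871, minus strand) had 6.41, 6.92 and 5.86 FPKM in WT stage 2, against 9.16, 7.89 and 8.0 in WT stage 3. The stages did not overlap for either gene, *Tcf3* being lower and *Tcf12* higher in stage 3, but neither passed the test. The log2 fold changes were -0.28 (95% interval -0.55 to -0.01, limma adjusted p = 0.344) and 0.34 (95% interval 0.02 to 0.66, limma adjusted p = 0.348). *Tcf4*, the other E protein gene, was near 0, at 0.06 to 0.17 FPKM over the 9 libraries.

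*Ctnnb1* (ENSMUSG00000006932, chromosome 9, 120929216 to 120960507, plus strand), the coactivator that TCF1 and LEF1 recruit, measured 27.0, 33.6 and 32.3 FPKM in the WT stage 2 libraries, against 33.0, 27.0 and 32.9 in WT stage 3. The groups overlapped. Its log2 fold change was 0.00 with a 95% interval of -0.31 to 0.31 (limma adjusted p = 0.9998), so that a change of the size seen for *Lef1* lies outside the interval, and its sign turned on the TPM scale (-0.098) and without WT stage 2 replicate 1 (-0.092), WT stage 3 replicate 1 (-0.046) or WT stage 3 replicate 3 (-0.044).

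**Figure D1:**
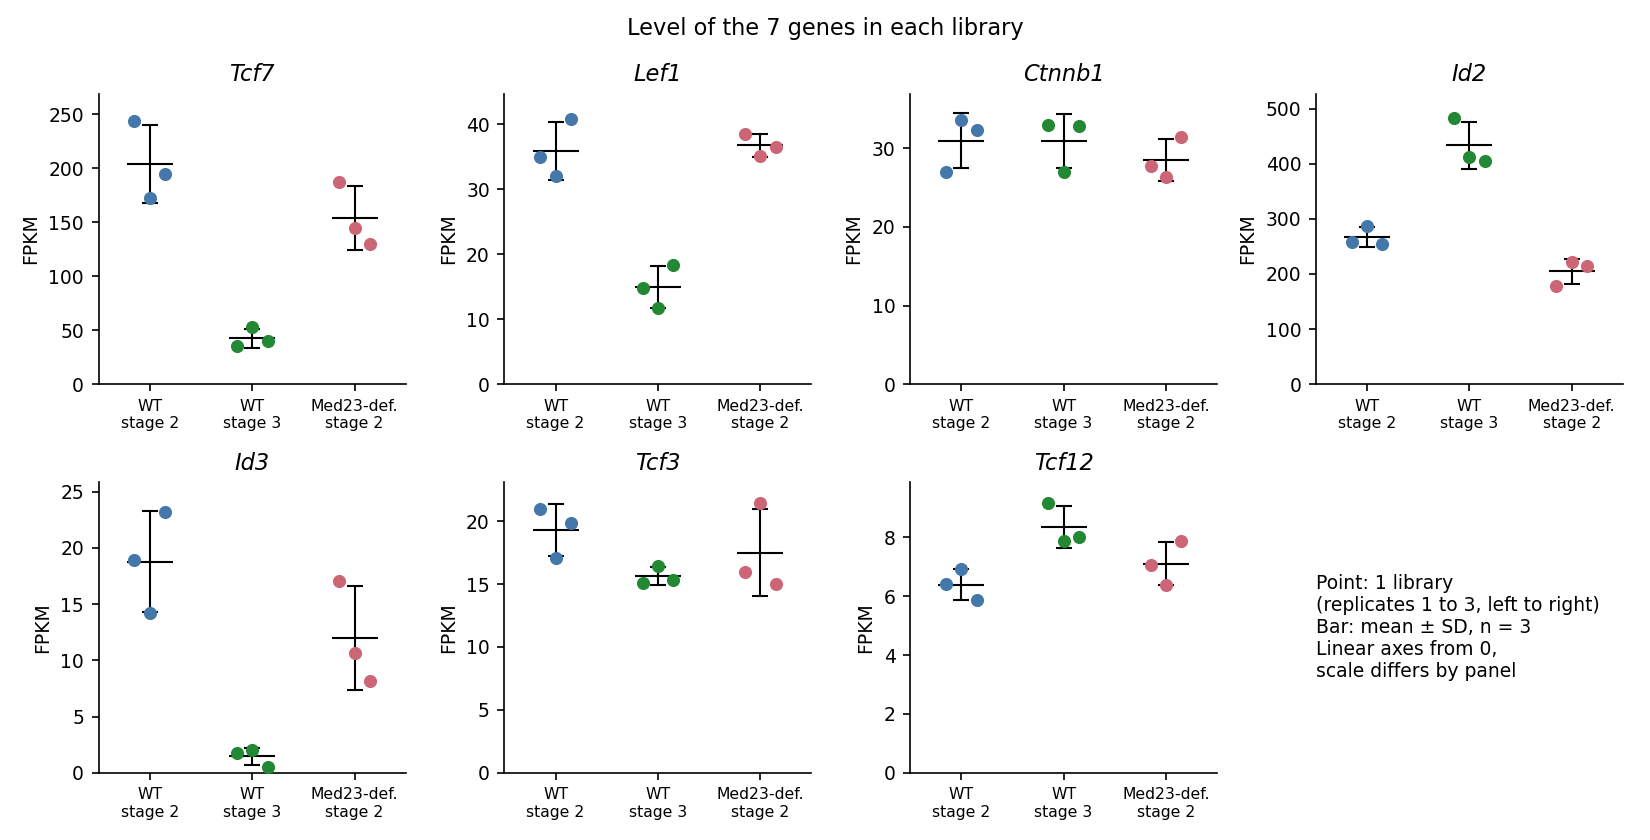
FPKM of the 7 genes in each library (points) with the mean ± SD of 3 libraries (bars), on linear axes from 0. *Tcf7*, *Lef1* and *Id3* sit lowest in WT stage 3, *Id2* is highest there (404 to 482 FPKM) and lowest in *Med23*-deficient stage 2 (179 to 221 FPKM), and the *Ctnnb1* groups overlap.

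The second comparison, *Med23*-deficient stage 2 against WT stage 2, asks whether the circuit differs in cells that lack *Med23*. The *Med23*-deficient samples carry later sample numbers than the WT samples, and the labels name no batch. Genotype thus cannot be told apart from age or from any difference in preparation. None of the 7 genes passed either rule. The largest difference by fold was that of *Id3*, and *Id2* alone separated the groups, being lower in all 3 *Med23*-deficient libraries. Without *Med23*-deficient replicate 3, the log2 fold change of *Id3* was -0.417, beside -0.418 for *Id2*. Both comparisons use the same WT stage 2 libraries, so their values are given side by side and not correlated. By the limma adjusted p, 0 of 7 genes were called, where 0.145% of 20674 genes tested were called lower and 0.0677% higher. By the fold and p thresholds 0 of 7 passed, where 1.32% of genes passed as lower and 0.798% as higher. At an unadjusted p of at most 0.05, 1 of the 7 genes passed in limma (*Id2*) and 0 in the Ballgown-style model, where 9.58% and 7.58% of all genes tested did. With quantile normalization 0 of the 7 passed at that p. For 1 of the 7 genes (*Id2*) the groups stood apart without overlap, against 14.0% of all genes tested, a share close to that of the 7.

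*Tcf7* had 187, 145 and 129.5 FPKM in the *Med23*-deficient libraries, which overlapped the WT stage 2 range and lay above all WT stage 3 libraries. Its log2 fold change was -0.40 (95% interval -0.85 to 0.05, limma adjusted p = 0.562). *Lef1* was at 38.6, 35.1 and 36.5 FPKM, within the WT stage 2 range. Its log2 fold change was 0.04 with a 95% interval of -0.23 to 0.30 (limma adjusted p = 0.919), and turned to -0.089 on the TPM scale and to -0.039 without WT stage 2 replicate 2. So in *Med23*-deficient stage 2 cells both HMG-box genes were nearer to WT stage 2 than to WT stage 3. A test of *Med23*-deficient stage 2 against WT stage 3 was not made, since genotype and stage differ together.

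*Id2* had 179, 221 and 215 FPKM in the *Med23*-deficient libraries, below the lowest WT stage 2 library, whereas the WT stage 3 libraries lay above the highest. The log2 fold change was -0.38 (95% interval -0.66 to -0.11, limma adjusted p = 0.342). *Id3* was at 17.1, 10.7 and 8.12 FPKM, overlapping WT stage 2, with a log2 fold change of -0.64 (95% interval -1.36 to 0.08, limma adjusted p = 0.564). Its lowest *Med23*-deficient library (8.12 FPKM) lay above its highest WT stage 3 library (2.05 FPKM). *Id2* was thus ordered *Med23*-deficient stage 2, WT stage 2, WT stage 3 from low to high, with no overlap between neighbours, and *Id3* was ordered WT stage 3, *Med23*-deficient stage 2, WT stage 2, with overlap between the last pair. Of all genes tested, 14.0% did not overlap in this comparison and 17.8% in the WT comparison. Neither *Id2* difference passed the adjusted p.

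*Tcf3* was at 16, 21.4 and 15 FPKM in *Med23*-deficient stage 2, *Tcf12* at 7.05, 6.40 and 7.88, and *Ctnnb1* at 27.8, 26.3 and 31.5. All 3 genes overlapped WT stage 2. The log2 fold changes were -0.15 (95% interval -0.54 to 0.25), 0.13 (-0.22 to 0.48) and -0.11 (-0.40 to 0.18), the last turning to 0.058 in the Ballgown-style model.

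**Figure D2:**
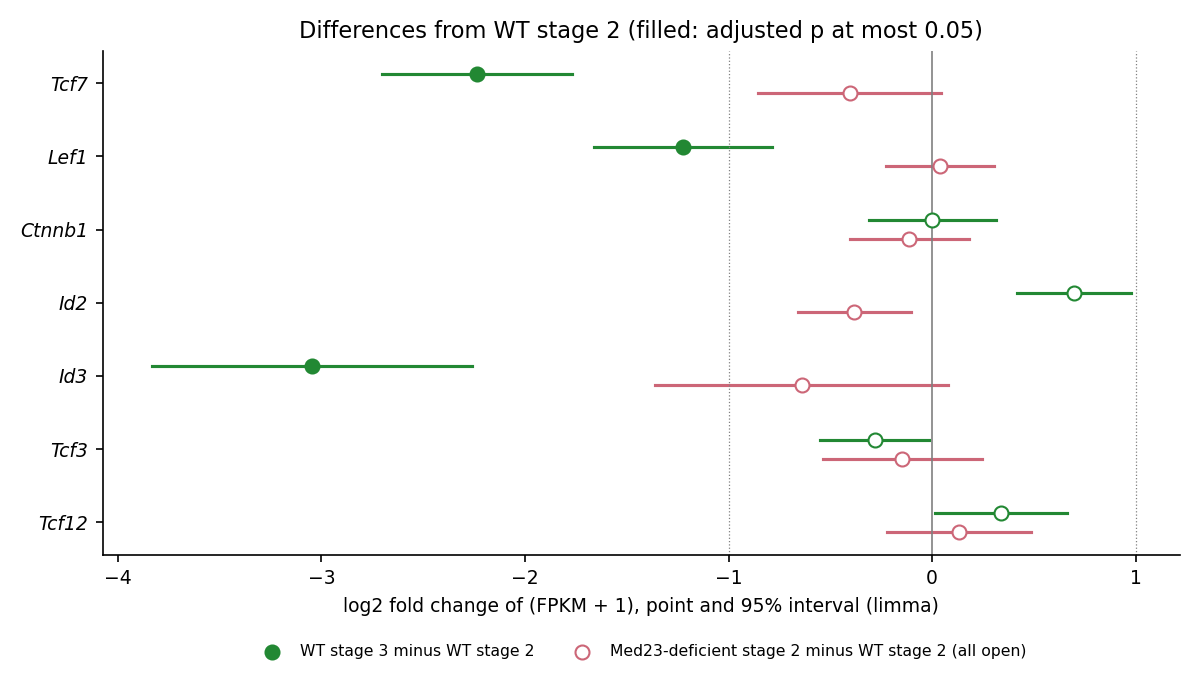
Log2 fold change of FPKM + 1 with its 95% interval from limma for the 7 genes, in WT stage 3 minus WT stage 2 (green) and *Med23*-deficient stage 2 minus WT stage 2 (red). Filled points, at -2.23, -1.22 and -3.05 for *Tcf7*, *Lef1* and *Id3* in the WT comparison, have an adjusted p of at most 0.05, and dotted lines mark a 2-fold change.

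Ratios within a library need no scaling between libraries and are given as a description, chosen after the values were seen. *Id2* exceeded *Id3* by 11 to 20.2 times in the WT stage 2 libraries, by 10.5 to 26.4 times in *Med23*-deficient stage 2 and by 201 to 749 times in WT stage 3. The ratio of *Tcf7* to *Lef1* was 4.78 to 6.97 in WT stage 2, 2.20 to 4.49 in WT stage 3 and 3.55 to 4.85 in *Med23*-deficient stage 2. *Tcf7* was thus the more abundant of the pair in all 9 libraries. The summed FPKM of *Id1*, *Id2* and *Id3* was 10.1 to 12.5 times that of *Tcf3*, *Tcf12* and *Tcf4* in WT stage 2, 16.9 to 19.9 times in WT stage 3 and 8.31 to 9.66 times in *Med23*-deficient stage 2. The 3 groups did not overlap in this ratio, and the E protein sum itself moved little, between 23.1 and 27.9 FPKM over the 9 libraries. *Id2* made up 91.3% to 99.8% of the Id sum, so the ratio mostly repeats the level of *Id2* and is no separate result. *Id2* passed the adjusted p in neither comparison, and the ratio was not tested.

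**Figure D3:**
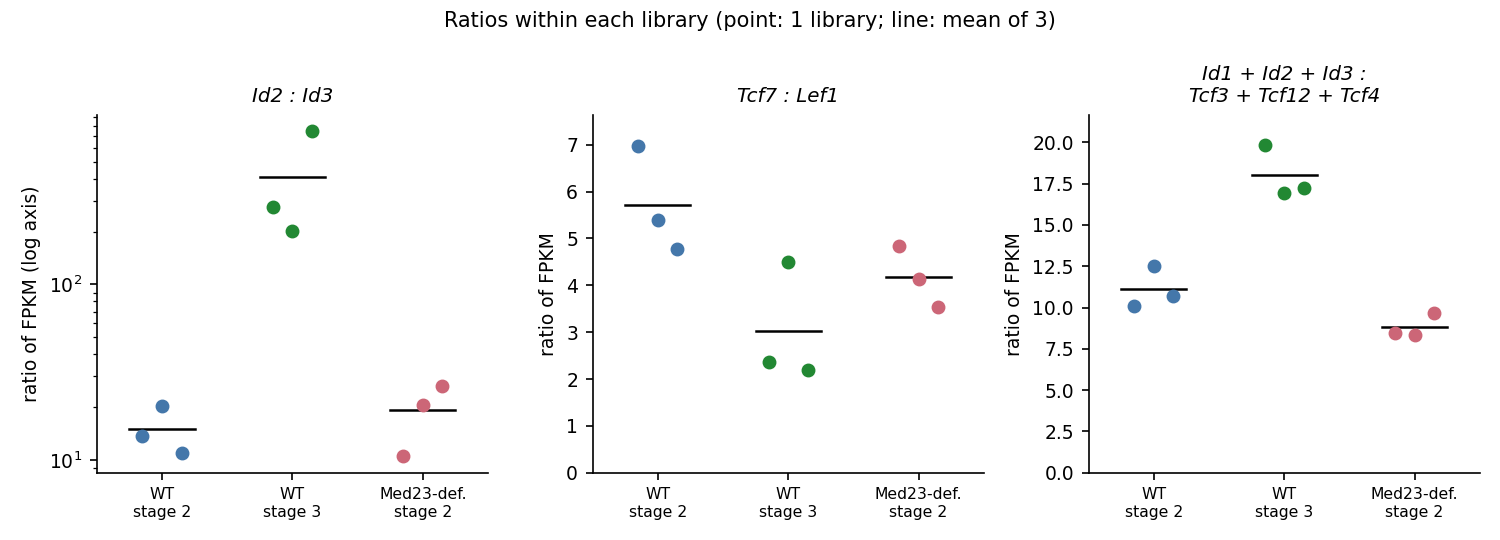
Ratio of *Id2* to *Id3* (log axis), of *Tcf7* to *Lef1*, and of the summed Id genes to the summed E protein genes in each library (points), with the mean of 3 libraries (lines). The *Id2* to *Id3* ratio is 201 or more in WT stage 3 and at most 26.4 elsewhere.

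Around the 7 genes stands the rest of the TCF/LEF and β-catenin pathway, with 26 of 29 listed genes in the table. In WT stage 3 against WT stage 2, 0 of 26 passed either rule in limma, and 5 had an unadjusted p up to 0.05, as 5 did in the Ballgown-style model. Of all genes tested in this comparison, 13.2% had such a p in limma and 11.3% in the Ballgown-style model. Their median log2 fold change was -0.14, beside -0.01 over all genes tested. The most abundant was *Aes*, a truncated member of the Groucho/TLE family, at 146 ± 19.4 FPKM in WT stage 2 and 120.3 ± 10.6 in WT stage 3 (SD, n = 3). In *Med23*-deficient stage 2 against WT stage 2, 1 of 26 was called (as higher, beside 0.0677% of all genes), and the median was -0.06. At an unadjusted p up to 0.05 there were 2 in limma and 2 in the Ballgown-style model, beside 9.58% and 7.58% of all genes. That gene was *Axin2*, a scaffold of the β-catenin destruction complex and a widely used readout of β-catenin signalling. *Axin2* rose from 9.35, 8.94 and 9.32 FPKM in WT stage 2 to 21.9, 22 and 18.9 in the *Med23*-deficient libraries, and was at 7.25, 7.22 and 8.57 in WT stage 3. The difference came to 1.10 in log2 (standard error 0.10), with a limma adjusted p of 0.0312. The adjusted p was 0.0592 on the TPM scale, 0.256 in the Ballgown-style model and from 0.0896 to 0.142 with any 1 of the 6 libraries left out, the lowest of 16 alternatives being 0.00460.

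Of 18 other HMG-box genes, 17 were tested in the WT comparison, and 0 were called by the limma adjusted p (8 at an unadjusted p up to 0.05, beside 13.2% of all genes, and 3 in the Ballgown-style model, beside 11.3%). The fold and p thresholds passed 5 as lower and 0 as higher (1.90% and 1.70% of all genes), and the median was -0.30. *Sox4* had 4.25, 1.55 and 4.72 FPKM in WT stage 2 beside 0.10, 0.28 and 0.64 in stage 3, which gave a log2 fold change of -1.68 (limma adjusted p = 0.116). *Tox*, which CD4 lineage and innate T cells need, had 19.3 ± 3.68 FPKM in WT stage 2 and 8.83 ± 2.86 in WT stage 3 (SD, n = 3). *Sox13* had a log2 fold change of -1.44 and *Tox2* one of -1.41, *Tox2* being listed at 0 in all 3 WT stage 3 libraries. *Tox* no longer reached 2-fold without WT stage 2 replicate 1 (-0.95) or WT stage 3 replicate 3 (-0.83), nor with a common upper quartile (-0.99), and *Tox2* not without WT stage 2 replicate 3 (-0.97). *Sox13* had an unadjusted p of 0.0517 without WT stage 2 replicate 1, 0.0542 without WT stage 2 replicate 2 and 0.0617 with a pseudocount of 0.01. None of these 4 passed in the Ballgown-style model (unadjusted p from 0.0763 to 0.288). In the *Med23*-deficient comparison 0 of 18 were called by the adjusted p, with 5 at an unadjusted p up to 0.05 (9.58% of all genes) and 3 in the Ballgown-style model (7.58% of all genes). *Sox4* passed the fold and p thresholds as lower (-1.12) and *Tox2* as higher (1.43), *Tox2* with 1.19, 0.75 and 3.87 FPKM in WT stage 2 and 12.1, 6.25 and 2.84 in the *Med23*-deficient libraries. *Sox4* no longer passed without WT stage 2 replicate 1 (-0.97), WT stage 2 replicate 3 (-0.91), *Med23*-deficient replicate 2 (-0.95) or *Med23*-deficient replicate 3 (-1.07, unadjusted p 0.0859). *Tox2* no longer passed without replicate 1 or 2 of either group (0.99 to 1.42, unadjusted p from 0.101 to 0.141), on the TPM scale (0.0565), with quantile normalization (0.0515) or without the trend (0.0572). In the Ballgown-style model the unadjusted p was 0.156 for *Sox4* and 0.307 for *Tox2*. *Hmgb2*, the most abundant of the list, was at 70.6 ± 12.0 FPKM in WT stage 2, 50.4 ± 4.66 in WT stage 3 and 53.9 ± 3.57 in *Med23*-deficient stage 2 (SD, n = 3).

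Of 16 other helix-loop-helix genes and E protein cofactors, 9 were in the table. In the WT comparison 1 rose and 1 fell by the adjusted p (0.759% and 0.914% of all genes), with a median of -0.0048. At an unadjusted p up to 0.05 there were 3 in limma, beside 13.2% of all genes, and 3 in the Ballgown-style model, beside 11.3%. *Bhlhe40*, a transcriptional repressor of the helix-loop-helix class, rose from 5.38 ± 1.69 to 21.1 ± 2.90 FPKM (SD, n = 3), or by 1.82 on the log2 scale. The limma adjusted p was 0.0239, but 0.0506 on the TPM scale, 0.212 in the Ballgown-style model and from 0.0649 to 0.0995 with any of 5 libraries left out, the exception being WT stage 2 replicate 2 (0.0281). The lowest of 16 alternatives was 0.00526. *Lmo4*, a LIM-only partner of *Ldb1*, fell from 20.0 ± 7.01 to 5.73 ± 0.952 FPKM (SD, n = 3), a difference of -1.60 in log2. Its limma adjusted p was 0.0472, and from 0.0833 to 0.146 with any 1 library left out, from 0.0540 to 0.0561 under other scalings, 0.0550 without the trend and 0.487 in the Ballgown-style model, the lowest being 0.0131. *Ldb1*, the most abundant, had a log2 fold change of -0.27 in the WT comparison and 0.19 in the other. In the *Med23*-deficient comparison limma called 0 of 9, with 1 at an unadjusted p up to 0.05 (9.58% of all genes) and 0 in the Ballgown-style model (7.58%).

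*Egr1*, *Egr2* and *Egr3*, which lie between the T cell receptor and *Id3*, were lower in every WT stage 3 library than in every WT stage 2 library, where 17.8% of all genes did not overlap in either direction, but limma called 0 of 3 by the adjusted p, while all 3 had an unadjusted p up to 0.05, beside 13.2% of all genes (0 in the Ballgown-style model, beside 11.3%). *Egr3*, the most abundant, had 32.3 ± 0.660 FPKM in WT stage 2 and 20.9 ± 6.49 in WT stage 3 (SD, n = 3). Limma called 0 of 3 in *Med23*-deficient stage 2, with 2 at an unadjusted p up to 0.05 (9.58% of all genes) and 1 in the Ballgown-style model (7.58%). *Egr1* had 32.8, 27.0 and 24.9 FPKM in WT stage 2 beside 15.7, 14.4 and 8.27 in *Med23*-deficient stage 2. It passed the fold and p thresholds there, with a log2 fold change of -1.12 (limma adjusted p = 0.199), but not without *Med23*-deficient replicate 3 (-0.86). *Egr3* had a log2 fold change of -0.13 in that comparison, which turned to 0.074 without *Med23*-deficient replicate 3.

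Of 7 genes described as E protein dependent in T cells, 6 were in the table, and 1 fell in WT stage 3, beside 0.914% of all genes. The other 5 had log2 fold changes above 0, none past the adjusted p, and the list's median was 0.17. At an unadjusted p up to 0.05 there was 1 in limma and 1 in the Ballgown-style model, beside 13.2% and 11.3% of all genes. *Zbtb16*, the most abundant, fell from 101 ± 12.3 to 27.5 ± 5.41 FPKM (SD, n = 3). Its log2 fold change was -1.85 and its limma adjusted p 0.0122. The call ended without WT stage 2 replicate 3 (adjusted p 0.0598), without WT stage 3 replicate 3 (0.0678) and in the Ballgown-style model (0.205), the lowest of 16 alternatives being 0.00178. In *Med23*-deficient stage 2 limma called 0 of the 6, with 1 at an unadjusted p up to 0.05 (9.58% of all genes) and 0 in the Ballgown-style model (7.58%), and the median was -0.02. *Zbtb16* averaged 78.1 ± 11.6 FPKM there (SD, n = 3), with a difference of -0.37 in log2. The recombination genes *Rag1* and *Rag2* and the pre-T cell receptor gene *Ptcra* did not exceed 1.58 FPKM in any library.

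Of 10 genes described as linked to TCF1 or LEF1 in T cells, 4 fell and 0 rose in WT stage 3 (0.914% and 0.759% of all genes), with a median of -0.22. At an unadjusted p up to 0.05 there were 4 in limma and 5 in the Ballgown-style model, beside 13.2% and 11.3% of all genes. *Ccr7*, a homing receptor of naive and central memory cells, fell from 9.12, 7.83 and 12.1 FPKM to 0, 0.11 and 0.17 (log2 fold change -3.27, limma adjusted p = 0.00843). *Slamf6* fell from 11.9 ± 2.51 to 1.14 ± 0.263 FPKM and *Myb* from 10.7 ± 0.773 to 1.80 ± 1.34 FPKM (SD, n = 3). Their limma adjusted p were 0.0117 and 0.0473. The *Ccr7* call ended without WT stage 3 replicate 3 (0.0529), the *Slamf6* call without WT stage 2 replicate 3 (0.0590), WT stage 3 replicate 2 (0.0512) or WT stage 3 replicate 3 (0.0660), and the *Myb* call without any library but WT stage 3 replicate 2 (up to 0.143), under other scalings (0.0536 to 0.0574) and without the trend (0.0519). In the Ballgown-style model the 3 had 0.162, 0.162 and 0.467, and the lowest of 16 alternatives were 0.000578, 0.00128 and 0.0141. *Bcl11b*, a T lineage factor, was the other gene called, with 48.0 ± 2.51 FPKM in WT stage 2 and 28.2 ± 2.94 in WT stage 3 (SD, n = 3). Its limma adjusted p of 0.0342 became 0.0593 to 0.123 with any 1 library left out and 0.275 in the Ballgown-style model, the lowest of 16 alternatives being 0.00875. The most abundant, the interleukin 7 receptor gene *Il7r*, had a log2 fold change of 0.29. In *Med23*-deficient stage 2, *Axin2*, which is on this list too, was the only one called, while 6 of 10 had an unadjusted p up to 0.05 in limma (9.58% of all genes) and 4 in the Ballgown-style model (7.58%), with a median of -0.10. *Bcl6* passed the fold and p thresholds as higher, with 1.17, 0.42 and 1.11 FPKM in WT stage 2 and 3.63, 3.21 and 2.82 in *Med23*-deficient stage 2 (limma adjusted p = 0.219), but did not reach 2-fold without WT stage 2 replicate 2 (0.98). *Myb* (log2 fold change -1.48) passed those thresholds as lower.

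**Figure D4:**
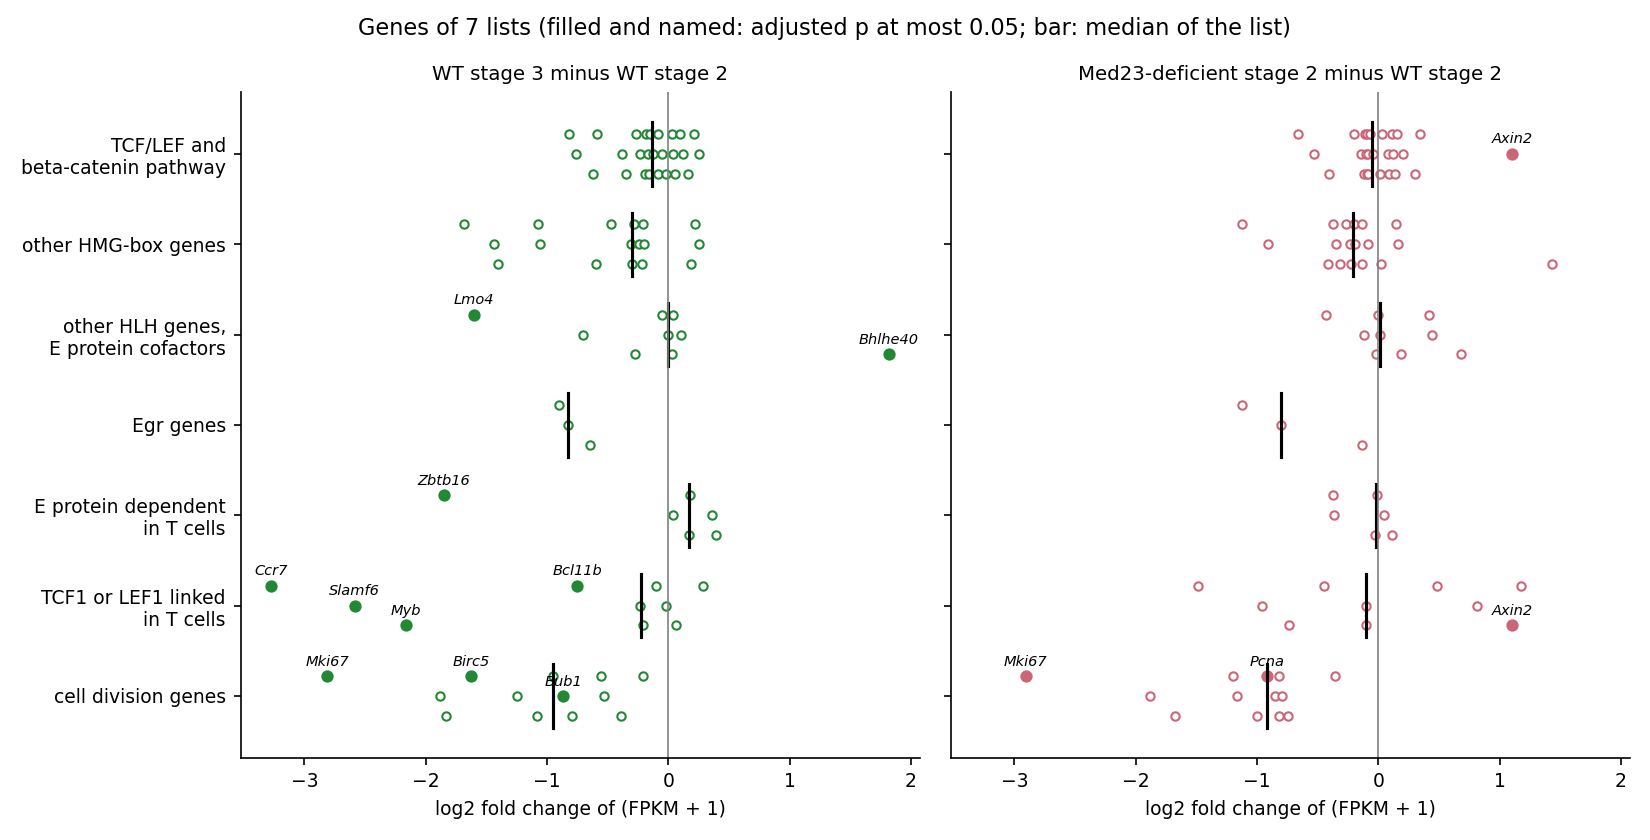
Log2 fold change of FPKM + 1 for the genes of 7 lists in both comparisons (points, with a bar at the median of each list). Filled and named points have a limma adjusted p of at most 0.05, among them *Ccr7* at -3.27 and *Bhlhe40* at 1.82 in the WT comparison and *Axin2* at 1.10 in the other.

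Fewer cells of a subset and less RNA per cell cannot be told apart in these bulk libraries, so subset markers are given beside the 7 genes. The 7 NKT1 markers summed to 194 to 261 FPKM in the WT stage 2 libraries, 713 to 796 in WT stage 3 and 191 to 281 in *Med23*-deficient stage 2, with *Il2rb* the most abundant. The 7 NKT2 markers, led by *Zbtb16*, summed to 268 to 315, 91.6 to 127 and 289 to 384 FPKM in the same order. The 8 NKT17 markers, led by *Blk*, summed to 23.0 to 29.6 FPKM in WT stage 2, but to at most 1.97 in WT stage 3 and 1.38 in *Med23*-deficient stage 2. *Tcf7*, *Lef1* and *Id3* were thus low in the WT stage 3 libraries, where NKT2 and NKT17 markers were low, and *Tcf7* and *Lef1* overlapped WT stage 2 in the *Med23*-deficient libraries, where of these 3 sums only that of NKT17 was low. The members of a sum did not all go 1 way. In the *Med23*-deficient comparison, 5 of 7 NKT1 markers had log2 fold changes above 0 and 2 below 0. *Klrb1c* was among the latter, at 3.42 FPKM beside 16.7 in WT stage 2. The NKT2 markers also had 5 above 0 and 2 below 0, *Zbtb16* being below. By the adjusted p, 0 of either list were called there. The part of subset shares in these results was not tested.

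Of 13 cell division genes, 3 fell in WT stage 3 and 2 in *Med23*-deficient stage 2 by the adjusted p (0.914% and 0.145% of all genes), with medians of -0.95 and -0.92. At an unadjusted p up to 0.05 there were 10 and 13 in limma (13.2% and 9.58% of all genes), and 3 and 8 in the Ballgown-style model (11.3% and 7.58%). *Mki67* was at 28.9 ± 6.32 FPKM in WT stage 2, 3.80 ± 3.19 in WT stage 3 and 3.01 ± 0.985 in *Med23*-deficient stage 2 (SD, n = 3), with limma adjusted p of 0.0490 and 0.0301. The first call held with WT stage 3 replicate 2 left out (0.0287) and ended without any other library (0.121 to 0.147), under the other scalings (0.0535 to 0.0575) and without the trend (0.0624), and the latter ended without any 1 library (0.0919 to 0.118). The Ballgown-style model gave 0.541 and 0.444, and the lowest of 16 alternatives were 0.0137 and 0.00261. The *Birc5* call in WT stage 3 had a limma adjusted p of 0.0445. It ended without any 1 library (0.0518 to 0.171) and with a common upper quartile (0.0532). Pseudocounts of 0.1 and 0.01 (0.0630 and 0.117) and the Ballgown-style model (0.282) also ended it. The *Pcna* call in *Med23*-deficient stage 2 had a limma adjusted p of 0.0304. It ended on the TPM scale (0.0617), without any 1 library (0.0993 to 0.136) and in the Ballgown-style model (0.305). The summed level of the 13 genes was 106 to 128 FPKM in WT stage 2, 46.9 to 70.0 in WT stage 3 and 41.8 to 44.5 in *Med23*-deficient stage 2, with *Pcna* the most abundant. Its part in the results on *Tcf7*, *Lef1* and *Id3* was not tested. Markers of 5 other cell types were low in all 9 libraries: the 8 genes for double-positive thymocytes summed to at most 5.05 FPKM, with *Rag1* leading, the 3 measured B cell genes to at most 0.51 (*Cd79b* leading), the 3 measured myeloid genes to at most 1.69 (*Lyz2*), the erythroid gene *Hbb-bs* to at most 0.75 and the 3 epithelial genes to at most 1.07 (*Epcam*). Those listed for gamma delta T cells were not: the gamma chain constant genes *Tcrg-C1*, *Tcrg-C2* and *Tcrg-C4* with *Trdc*, led by *Tcrg-C2*, summed to 294 to 319.8 FPKM in WT stage 2, 259 to 298 in WT stage 3 and 4.79 to 6.81 in *Med23*-deficient stage 2, *Trdc* at no more than 0.38 FPKM in any library. The study gates iNKT cells on TCRβ and a CD1d tetramer, which would leave gamma delta T cells out. The part of these transcripts in the results on the 7 genes was not tested.

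**Figure D5:**
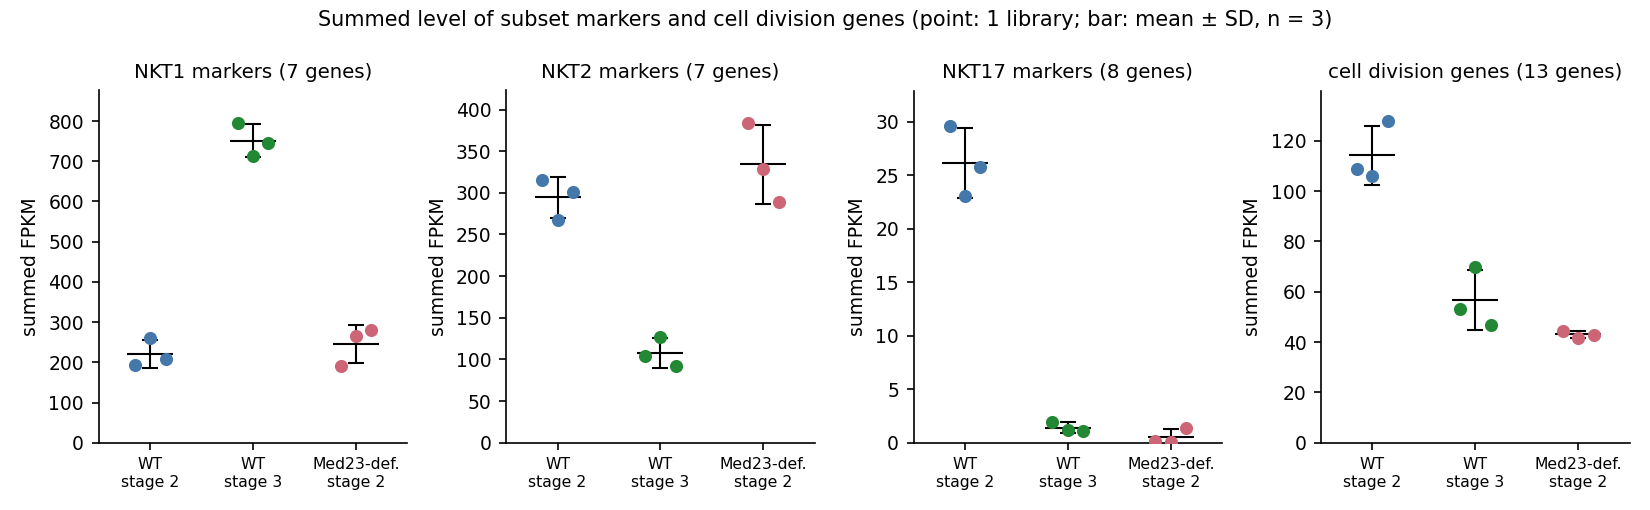
Summed FPKM of NKT1, NKT2, NKT17 and cell division genes in each library (points) with the mean ± SD of 3 libraries (bars), on linear axes from 0. NKT1 markers reach 713 or more only in WT stage 3, and NKT17 markers stay at or below 1.97 outside WT stage 2.

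The genes most like each of the 7 over the 9 libraries were found by Pearson's r of log2(FPKM + 1) among 5691 genes whose mean FPKM was 5 or more. The 9 libraries form 3 groups, so r can reflect the group levels as well as the spread within them, and it is given with no p. Nearest to *Tcf7* were *Zbtb16* (r = 0.999), *Ccr4* (0.982) and *Icos* (0.978). *Icos* was at 137 FPKM in WT stage 2, 33.6 in WT stage 3 and 90.6 in *Med23*-deficient stage 2 (means). Nearest to *Lef1* were *Heg1* (0.979), *Itgb3* (0.976) and *Ccr9* (0.974), and *Ccr9*, a homing receptor of thymocytes, had means of 10.7, 0.400 and 14.2 FPKM in the same order. *Id3* was nearest to *Cbx6* (0.986), *Mpp6* (0.975) and *Bcl11b* (0.974). *Id2* was nearest to *Sap30l* (0.981), *Prf1* (0.981) and *Klra3* (0.976). *Prf1*, which encodes perforin, had means of 2.60, 16.4 and 0.567 FPKM, and so reached a mean FPKM of 5 through WT stage 3 alone. Since *Prf1* was chosen by its r with *Id2*, a shared order of the groups follows from that choice. *Tcf12* was nearest to *Oxct1* (0.939), *Sp100* (0.934) and *Zfp683* (0.915), *Tcf3* to *Phrf1* (0.933), *Prmt1* (0.912) and *Mdh2* (0.888), and *Ctnnb1* to *Rabep1* (0.947), *Cyth1* (0.915) and *Pcm1* (0.908).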

How the data were processed

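Per the methods and processing notes, the authors made stranded total RNA libraries, trimmed reads with Trimmomatic 0.36, aligned them with HISAT2 (mm10) and used StringTie with GENCODE vM12 for gene levels. They deposited FPKM for each library, which are used here. No read counts were used, so counting error is unknown. Genes above 0 FPKM in 1 or more of the 6 libraries compared were tested with limma 3.58.1 in R 4.3.3 on log2(FPKM + 1), with a mean-variance trend, and p was adjusted by Benjamini-Hochberg over all genes tested. With 3 against 3 libraries, an exact permutation p is never below 0.10. The fit was tested on simulated data. Where a symbol has several rows, the most abundant was used. Named genes are the 7 members, genes of each list past a threshold (up to 4 by fold) with its most abundant gene, and the 3 genes most like each member, leaving out Gm numbers and Rik names. Gene models with Gm numbers, marker genes and genes near 0 were named outside that rule, after their values were seen. Some listed genes are not reported here. The members and lists were chosen with earlier results of these data known. Alternatives were other pseudocounts, a mean FPKM of at least 1, TPM, a common upper quartile, quantile normalization, a Ballgown-style model with a library-size covariate, no trend, all 9 libraries, the replicate block and leaving out each library. Tables and figures used Python 3.11.15, pandas 2.3.3 and matplotlib 3.10.9. Promoter windows are from RefSeq with GRCm38.p6.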

Additional observations from a re-analysis of the deposited data

How the results depend on the processing

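In WT stage 3 against WT stage 2, 3 of the 7 genes stayed past the fold and p thresholds under all 16 alternatives. By the adjusted p, 3 or 4 of the 7 passed under the pseudocounts, scalings, filter, no trend and all 9 libraries, but 0 in the Ballgown-style model and from 0 (when replicate 3 of either stage was missing) to 2 with 1 library left out. The genes that passed were not always the same. With a common upper quartile or quantile normalization they were *Tcf7*, *Id2* and *Id3*, and *Lef1* was lost. Where 4 passed, *Id2* was the added gene. Over all genes, 346 passed the adjusted p, against 224 on the TPM scale, 5 in the Ballgown-style model, 626 with all 9 libraries and 22 to 137 with 1 library left out. The fold and p thresholds passed 745, and 1423 and 1452 with pseudocounts of 0.1 and 0.01. In *Med23*-deficient stage 2 against WT stage 2, 0 of 7 passed either rule under any of the 16 alternatives. Over all genes, 44 passed the adjusted p, against 77 with a pseudocount of 0.01, 143 with the filter on mean FPKM, 1 in the Ballgown-style model, 176 with all 9 libraries and 1 to 8 with 1 library left out. The fold and p thresholds passed 437, and 971 and 974 with pseudocounts of 0.1 and 0.01. The filter tests fewer genes and leaving out a library uses fewer samples. For the other settings the cause was not tested.

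The TPM scale moved the median log2 difference, over genes whose mean FPKM reached 1, from -0.05 to -0.16 in the *Med23*-deficient comparison and from -0.05 to -0.14 in the other. In the same order, a common upper quartile turned it to 0.038 and 0.021, and quantile normalization gave 0.0080 and -0.0076. In the *Med23*-deficient comparison, 31.8% of genes called by adjusted p were higher, 16.1% on the TPM scale and 43.8% with a common upper quartile. In the WT comparison 45.4% were higher, and 38.4% on the TPM scale. There the share was 54.4% with a common upper quartile and 51.8% with quantile normalization, so the more frequent direction turned with the scaling.

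Sign changes were limited to values near 0 that passed no test. For *Ctnnb1* in the WT comparison the log2 fold change was -0.098 on the TPM scale and from -0.092 to 0.093 with 1 library left out, and in the other comparison 0.058 in the Ballgown-style model. For *Lef1* in the *Med23*-deficient comparison it was -0.089 on the TPM scale and from -0.039 to 0.13 with 1 library left out. *Aes* was at -0.0076 (TPM) and -0.026 (Ballgown-style) there, and *Egr3* from -0.31 to 0.074 with any 1 library missing.

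In a fit that takes replicate numbers for a block, 0 of the 7 genes passed the adjusted p in the WT comparison, and 19 of all genes did, with 0 in the other comparison. *Ccr7*, *Bhlhe40*, *Slamf6*, *Zbtb16*, *Bcl11b*, *Myb*, *Lmo4*, *Mki67* and *Birc5* did not keep their WT calls there (adjusted p of 0.0744 to 0.135), nor did *Axin2* (0.203), *Mki67* or *Pcna* (0.195 each) in the other. *Tox2* did not pass the fold and p thresholds there in the latter (unadjusted p 0.0897). Same-numbered libraries deviated together with correlations of 0.08, 0.03 and 0.16 in the WT comparison and 0.03, 0.00 and 0.14 in the other. The main fit takes them to share only a number and is not paired, and the labels do not say whether they share an animal or an experiment. Every library of the WT comparison correlated best with its own number, and in the other comparison only those numbered 3 did.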
